A study of Mus musculus with 8 samples.

Results

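The genes described here are the mitochondrial solute carriers of the Slc25a family in mouse liver, chosen by gene symbol from the deposited table. Of its 11784 genes, 38 carry an Slc25a number. Slc25a13, Slc25a15 and Slc25a20 are set apart by the rule and serve only as a side comparison, which leaves 35 members. Liver RNA came from 8 male C57BL/6J mice, 4 on the Control diet (TD.140711) and 4 on the Low AA diet (TD.140712), from stranded libraries enriched for poly(A). No engineered allele is given for either group, and both were switched to an amino acid defined diet at 9 weeks of age, ate it for 4 months and were killed after a fast of about 16 hours. In the Low AA diet carbohydrate replaced calories from amino acids at a similar share of fat, so less amino acid and more carbohydrate came together and cannot be told apart. The Control mice are coded F129, F2212, F7111 and F2110, and the Low AA mice H1126, H828, H817 and H1315.

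The inner mitochondrial membrane is closed to most metabolites, and the Slc25a proteins are the small carriers that let them cross. They exchange ADP for ATP, bring in phosphate, pass citrate, malate, glutamate and aspartate between matrix and cytosol, and supply the matrix with coenzymes, nucleotides and iron. In liver they link the mitochondrion to urea synthesis, gluconeogenesis and the export of carbon for lipid synthesis. Further family members are listed in the table under other symbols, among them Ucp2, Mtch1, Mtch2 and Mcart1, the older symbol of Slc25a51. Slc25a2, Slc25a18, Slc25a31, Slc25a35, Slc25a41, Slc25a43, Slc25a53 and Slc25a54 were not analysed here.

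Each value is treated as a scaled read count, that is, reads assigned to the gene after a scaling between mice and rounding by the authors. The sources used here do not state the scaling. Values summed to between 27876664 and 30799385 per mouse over all genes, and these totals follow the scaling, so they are not the sequencing depth. The tissue label of liver held by the level of its markers. The 5 hepatocyte markers summed to 2184287 to 2384067 in the Low AA mice and 1935386 to 2252201 in the Control mice. Over all mice the endothelial sum was 4307 to 6228 and the stellate sum 7509 to 9777. Presence alone does not single out hepatocytes, since all endothelial and stellate markers were also in the table. Muscle had 0 of its 5 markers there. Summed markers of hepatocytes, endothelial cells and stellate cells overlapped between the diets. So did those of macrophages (6 of 7 in the table), cholangiocytes (4 of 5) and red blood cells (4 of 6). For adipose tissue only 1 of 5 markers was in the table, and it overlapped with wide scatter, from 147 to 1050. Of 8 acinar markers of the pancreas only Cela1 was in the table, and Control mouse F2212 stood apart for it, with 36587 against 130 to 288 in the other mice. Every gene in the table has at least 28 in 3 mice, so a marker high in F2212 alone would be missing. The absence of the other acinar markers therefore says nothing about F2212. The 6 members described first are given with and without F2212. In whole liver, fewer cells of a type and less RNA per cell cannot be told apart.

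The diets overlapped in the summed level of the family. The 35 members together took 0.462% to 0.498% of all scaled reads in the Low AA mice and 0.364% to 0.509% in the Control mice, with F7111 the lowest and F2110 the highest of all 8. No member passed an adjusted p under 0.05 in limma, 0 of 35, where 0.399% of all genes did. The smallest adjusted p was 0.0847, for Slc25a34. At an unadjusted p under 0.05 in limma, 5 members were higher on the Low AA diet, namely Slc25a34, Slc25a12, Slc25a5, Slc25a32 and Slc25a30, where 5.13% of all genes were. Slc25a1 alone was lower at that p, where 6.7% of all genes were. The values of the diets did not overlap for 3 higher members, Slc25a34, Slc25a12 and Slc25a5, where this held for 3.26% of all genes. They did not overlap for 1 lower member, Slc25a1, where this held for 3.55% of all genes.

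The differences were small in size. The log2 fold change, Low AA minus Control throughout and also called the log2 difference, was above 0 in 19 members and below 0 in 16, with a median of 0.04 against 0.0023 over all genes. Its size had a median of 0.14 in the members and 0.14 over all genes. Slc25a34 alone was past 1.5-fold in size, 2.86% of the members, against 4.9% of all genes. The 95% interval of the fold change lay wholly within 1.5-fold in 21 members, 60.0%, and in 64.6% of all genes. The plot of members by substrate shows the intervals, of which that of Slc25a25 was the widest.

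**Figure D1:**
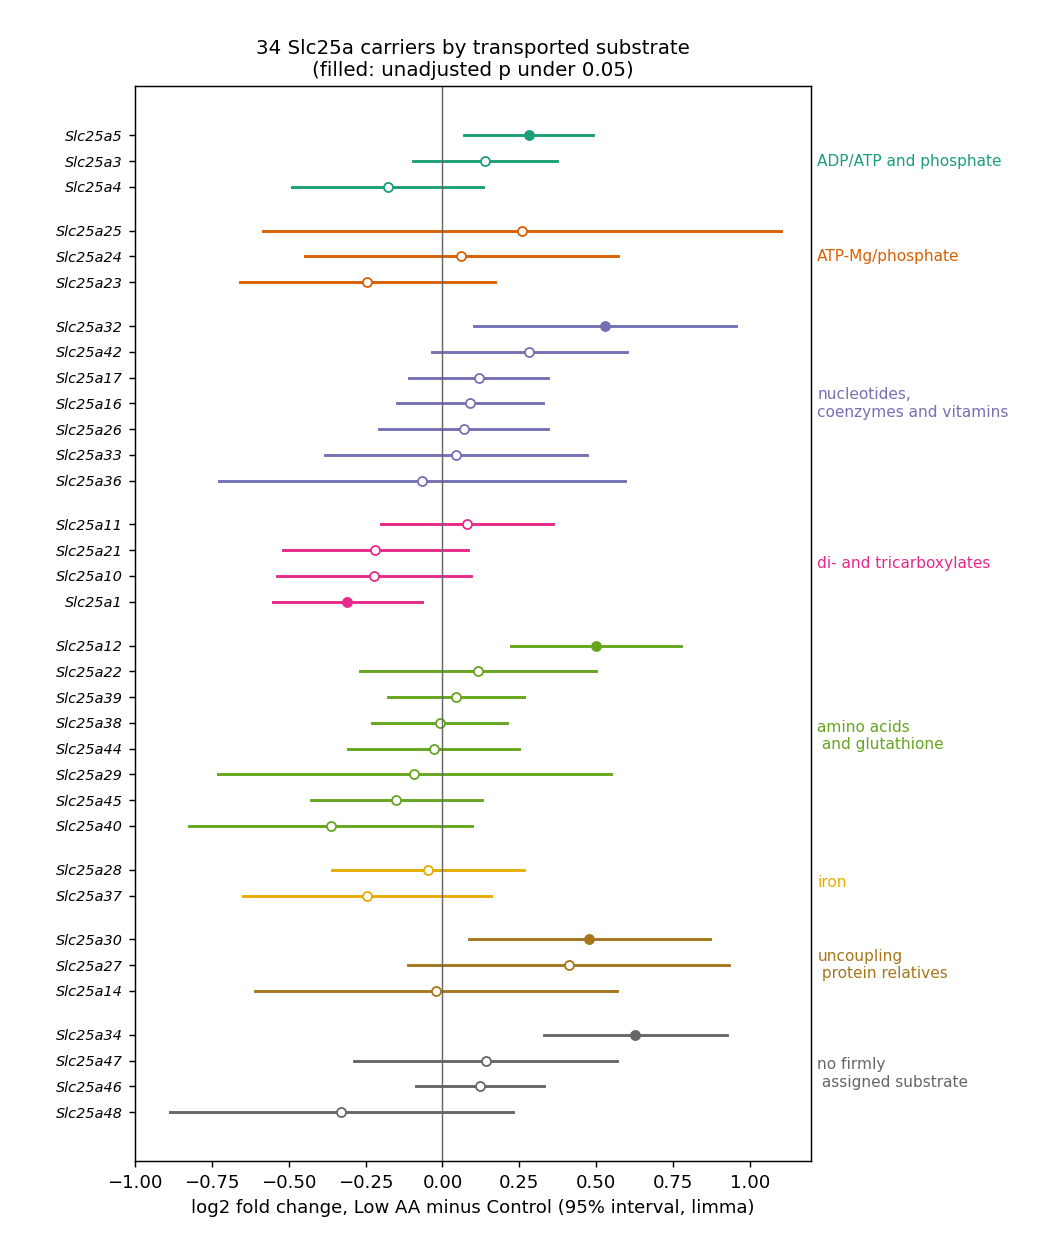
Log2 fold change (Low AA minus Control, horizontal axis) of each of 34 members, with its 95% interval from limma, grouped by transported substrate. Filled points are the 6 members at an unadjusted p under 0.05, and the largest of them is Slc25a34 at 0.63.

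Slc25a34, a carrier whose substrate is not firmly assigned, had the largest difference. Its gene lies on chromosome 4 from 141618824 to 141623821 (GENCODE annotation of GRCm38, the assembly also named mm10). Scaled read counts were 751, 853, 980 and 742 in Low AA mice H1126, H828, H817 and H1315, and 578, 433, 580 and 561 in Control mice F129, F2212, F7111 and F2110. Every Low AA mouse was above every Control mouse, and F2212 was the lowest of the 8. This gave a log2 difference of 0.63 (standard error 0.13, limma adjusted p = 0.0847). The exact permutation test, two-sided and unadjusted, gave p = 0.0286, the smallest that 4 against 4 allow. Any gene without overlap reaches that p, as Slc25a12, Slc25a5 and Slc25a1 did, so it restates the lack of overlap. Without F2212 the log2 difference was 0.53 (limma adjusted p = 0.103). Over the 8 fits that each leave out a mouse the limma adjusted p ran from 0.0998 to 0.278.

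Slc25a12, or aralar, exchanges mitochondrial aspartate for cytosolic glutamate and is a step of the malate-aspartate shuttle, which carries reducing power into the mitochondrion. Its gene lies on chromosome 2 from 71271063 to 71367749 (GRCm38). The Low AA mice had 796, 779, 818 and 874, and the Control mice 613, 495, 517 and 705, in the same order of mice. The Low AA mice lay close together and above all Control mice, of which F2212 was the lowest. The log2 difference came to 0.50 (standard error 0.12, limma adjusted p = 0.133), and 0.43 without F2212 (limma adjusted p = 0.172).

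Slc25a13, or citrin, does the same exchange and is the main form in liver. Its log2 difference was -0.11 (standard error 0.10, limma adjusted p = 0.747), with values of 8966 to 10387 in the Low AA mice and 9564 to 11746 in the Control mice. Counted per kilobase of exon, aralar made up 3.56% to 4.18% of the pair in the Low AA mice and 2.25% to 2.99% in the Control mice. The diets did not overlap in this share, but it includes Slc25a12, which had no overlap by itself. How often such shares stay apart over other gene pairs was not examined. Citrin made up at least 95.8% of the pair in every mouse.

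Slc25a5 encodes the ADP/ATP exchanger ANT2, through which ATP made in the matrix reaches the cytosol. Its gene lies on chromosome X from 36795651 to 36798807 (GRCm38). The Low AA mice had 13809, 13506, 14273 and 16338, and the Control mice 11987, 11433, 12493 and 11684. The diets did not overlap, and the Control mice lay closer together (SD 456, n = 4) than the Low AA mice (SD 1277, n = 4), of which H1315 was highest. In limma the log2 difference was 0.28 (standard error 0.09, limma adjusted p = 0.266), and 0.26 without F2212. Of the stretches of 100 bases in the Slc25a5 transcript, the length of a read here, 12.0% also occur exactly in transcripts of 4 other genes. None of these genes is in the table. How reads from such stretches were assigned is not given, so the effect on the Slc25a5 value is unknown.

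Slc25a4, the ANT1 form of heart and muscle, was weak, with 120 to 145 in the Low AA mice and 130 to 168 in the Control mice. Its log2 difference was -0.18 (standard error 0.14, limma adjusted p = 0.698). Per kilobase it made up 0.483% to 0.658% of the ADP/ATP carrier pair in the Low AA mice and 0.666% to 0.927% in the Control mice. These shares also did not overlap but nearly touched, and Slc25a5 had no overlap by itself. Slc25a5 supplied nearly all of the pair in each mouse. The shares within the ATP-Mg/phosphate, mitoferrin, pyrimidine nucleotide and glutathione carriers, described below, overlapped between the diets. Slc25a3, the phosphate carrier that supplies ATP synthase, had 9332, 8604, 10230 and 10567 in the Low AA mice and 8807, 9444, 7723 and 9191 in the Control mice. These overlapped, with a log2 difference of 0.14 and a 95% interval from -0.10 to 0.37 (limma adjusted p = 0.686).

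Slc25a32 brings folate, and by some accounts FAD, into the mitochondrion, where folate serves one-carbon metabolism. Its gene lies on chromosome 15 from 39091231 to 39112716 (GRCm38). The Low AA mice had 1070, 1321, 1002 and 821, and the Control mice 806, 499, 868 and 766. The diets overlapped, since Control mouse F7111 at 868 was above Low AA mouse H1315 at 821. Its log2 difference was 0.53 (standard error 0.19, limma adjusted p = 0.302), and it was 0.35 without F2212, the lowest mouse.

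Slc25a30, a relative of the uncoupling proteins, lies on chromosome 14 from 75760117 to 75787037 (GRCm38). The Low AA mice had 1070, 1135, 771 and 698, and the Control mice 678, 542, 779 and 605. In the Low AA group H1126 and H828 were high, and H817 and H1315 lay within the Control range. This gave a log2 difference of 0.48 (standard error 0.18, limma adjusted p = 0.314). Without F2212 it was 0.39 and the unadjusted p in limma was 0.0569.

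Slc25a1 is the citrate carrier, which sends citrate to the cytosol as the carbon source of fatty acid and sterol synthesis. Its gene lies on chromosome 16 from 17925223 to 17928219 (GRCm38). The Low AA mice had 2754, 3091, 2918 and 3115, and the Control mice 3765, 4381, 3365 and 3300. All Low AA mice were below all Control mice, with the nearest values 3115 and 3300, and F2212 was the highest of the 8. The log2 difference came to -0.31 (standard error 0.11, limma adjusted p = 0.283), and -0.23 without F2212.

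In each of these 6 members F2212 was the Control mouse farthest from the Low AA group, the lowest for the 5 higher carriers and the highest for Slc25a1. Over all members F2212 was the lowest Control mouse in 14 and the highest in 11, that is in 40.0% and 31.4% of them, against 30.7% and 30.6% of all genes. Without F2212 the unadjusted count kept 4 of the 5 higher members, with Slc25a42 in place of Slc25a30, and Slc25a1 remained the lower one. Without Low AA mouse H828 the higher count was 3, since Slc25a30 and Slc25a32 left it. Without Low AA mouse H1126 no member was lower at that p. The plot of the 6 members by mouse shows these positions.

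**Figure D2:**
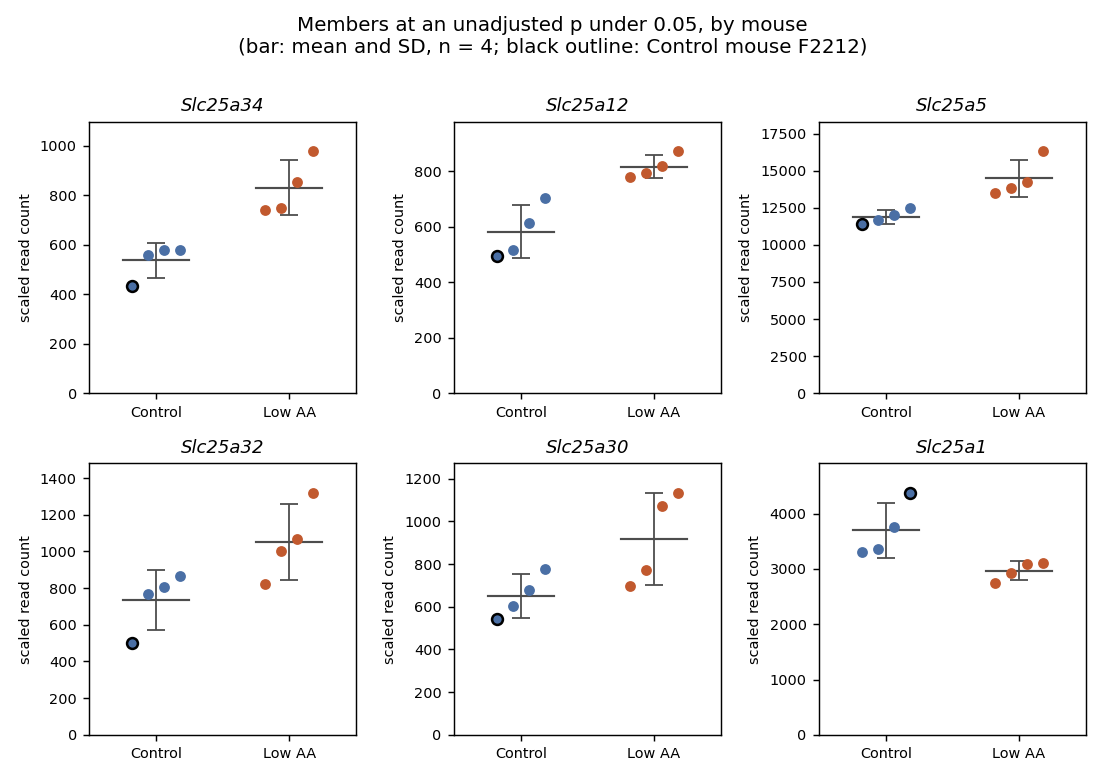
Scaled read counts (vertical axis, from 0) of the 6 members at an unadjusted p under 0.05, 1 point per mouse, with the mean and SD of each diet (n = 4). Slc25a34, Slc25a12, Slc25a5 and Slc25a1 have no overlap between the diets, Slc25a32 and Slc25a30 overlap, and Control mouse F2212 (black outline) is at the far end of the Control group in all 6.

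The upstream sequences of Slc25a34, Slc25a12 and Slc25a1, 3 of the 4 members without overlap between the diets, are shown to let their promoters be compared. They are from RefSeq on GRCm38.p6, written 5′ to 3′ on the gene's own strand, here minus in all 3 genes, and run up to the outermost annotated start. The capitals mark an E-box, the letters CACGTG bound by helix-loop-helix factors.
Slc25a34, chr4:141623892-141624084: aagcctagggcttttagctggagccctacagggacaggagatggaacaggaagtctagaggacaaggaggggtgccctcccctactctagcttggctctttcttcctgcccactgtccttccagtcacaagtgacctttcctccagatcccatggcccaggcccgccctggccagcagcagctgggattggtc
Slc25a12, chr2:71367782-71368005: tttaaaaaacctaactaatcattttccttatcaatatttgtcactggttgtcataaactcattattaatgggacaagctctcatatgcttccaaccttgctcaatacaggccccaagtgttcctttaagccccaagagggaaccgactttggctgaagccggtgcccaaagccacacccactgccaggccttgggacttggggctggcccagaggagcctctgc
Slc25a1, chr16:17928220-17928469: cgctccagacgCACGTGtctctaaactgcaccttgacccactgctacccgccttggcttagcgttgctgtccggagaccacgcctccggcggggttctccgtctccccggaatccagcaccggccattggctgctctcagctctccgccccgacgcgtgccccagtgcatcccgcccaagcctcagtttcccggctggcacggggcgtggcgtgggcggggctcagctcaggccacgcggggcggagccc

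In the 250 bases before each RefSeq start, on both strands, 6 motifs were sought in 36 windows of the 28 members that have one and in 32851 windows of all genes. The E-box, CACGTG, was in 5 member windows of 4 genes, Slc25a1, Slc25a14, Slc25a33 and Slc25a36, and in 6.02% of all windows. The cyclic AMP response element of CREB, TGACGTCA, was in 2, those of Slc25a25 and Slc25a36, and in 1.55% of all windows. The C/EBP-ATF element TGATGNAA, read by ATF4 in amino acid shortage, was in 0 member windows and 3.45% of all windows. The sterol element TCACNCCA was in 0 and 3.67%, the core GCATGCGC of nuclear respiratory factor 1 in 0 and 2.26%, and the element TCAAGGTCA of the estrogen-related receptors in 0 and 0.387%. The E-box of Slc25a1 was the only match in the printed sequences. These matches describe letters only, and no match in a window says nothing about the factor.

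The remaining carriers of di- and tricarboxylates overlapped between the diets. Slc25a10, which exchanges malate or succinate for phosphate, had 4561 to 6108 in the Low AA mice and 5261 to 7577 in the Control mice, giving a log2 difference of -0.22 (limma adjusted p = 0.605), and -0.12 without F2212, its highest mouse. Slc25a21, which carries 2-oxoadipate from lysine and tryptophan breakdown, had 259 to 359 and 313 to 410, also with -0.22 (limma adjusted p = 0.593). Slc25a11, the 2-oxoglutarate/malate arm of the malate-aspartate shuttle, had a log2 difference of 0.08 (limma adjusted p = 0.867). Per kilobase, these 3 and Slc25a1 together made up 8.54% to 9.77% of the summed member level in the Low AA mice. In the Control mice they made up 9.80% to 12.2%, and the ranges do not overlap but nearly touch. This sum includes Slc25a1, which had no overlap by itself. Its highest share, 12.2%, was that of F7111, the mouse with the lowest summed member level per kilobase. For every other substrate group the share overlapped between the diets.

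Among the amino acid and glutathione carriers, Slc25a22 brings glutamate into the matrix. It had 16461, 16065, 15505 and 18028 in the Low AA mice and 13494, 13179, 13252 and 22810 in the Control mice. The 3 other Control mice were nearly equal and below every Low AA mouse, while F2110 was the highest of the 8. In limma the log2 difference was 0.11 (standard error 0.17, limma adjusted p = 0.857), and without F2110 it was 0.31 (limma adjusted p = 0.292). Slc25a39, the main mitochondrial glutathione importer, had 12461, 12847, 13635 and 14922 in the Low AA mice and 12713, 14233, 11940 and 13350 in the Control mice, a log2 difference of 0.04 with a 95% interval from -0.18 to 0.27. Its relative Slc25a40 had 60 to 112 in the Low AA mice and 91 to 125 in the Control mice, giving a log2 difference of -0.36 (limma adjusted p = 0.548), and never made up over 0.564% of the pair per kilobase. Slc25a38, a glycine carrier for heme synthesis, had a log2 difference of -0.0091, and Slc25a44, a carrier of branched-chain amino acids, of -0.03. Slc25a29, which carries basic amino acids, and Slc25a45 had -0.09 and -0.15, with overlap between the diets. Their limma adjusted p values ran from 0.718 for Slc25a45 to 0.987 for Slc25a38.

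The ATP-Mg/phosphate carriers, which adjust the adenine nucleotide pool of the matrix and are gated by calcium, include the member with the widest range over the mice. Slc25a25 had 17645, 8914, 11085 and 16420 in the Low AA mice and 11123, 11061, 5168 and 21965 in the Control mice, a 4.25-fold range over the 8 mice. Both ends of that range were Control mice. The estimate was 0.26 on the log2 scale with a 95% interval from -0.58 to 1.10 (limma adjusted p = 0.852), and it was -0.10 without F7111 and 0.60 without F2110. Slc25a23 had 3542, 3040, 3082 and 3726 in the Low AA mice and 3214, 4094, 5897 and 3141 in the Control mice, where F7111, lowest for Slc25a25, was highest. The diets differed by -0.24 on the log2 scale (limma adjusted p = 0.688), and -0.05 without F7111. Per kilobase, Slc25a25 made up 70.1% to 80.0% of the 3 carriers of this kind in the Low AA mice, and 41.5% to 84.8% in the Control mice, with F7111 the lowest. Slc25a24 held under 1% in every mouse, 0.283% to 0.571%, and had a log2 difference of 0.06.

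**Figure D3:**
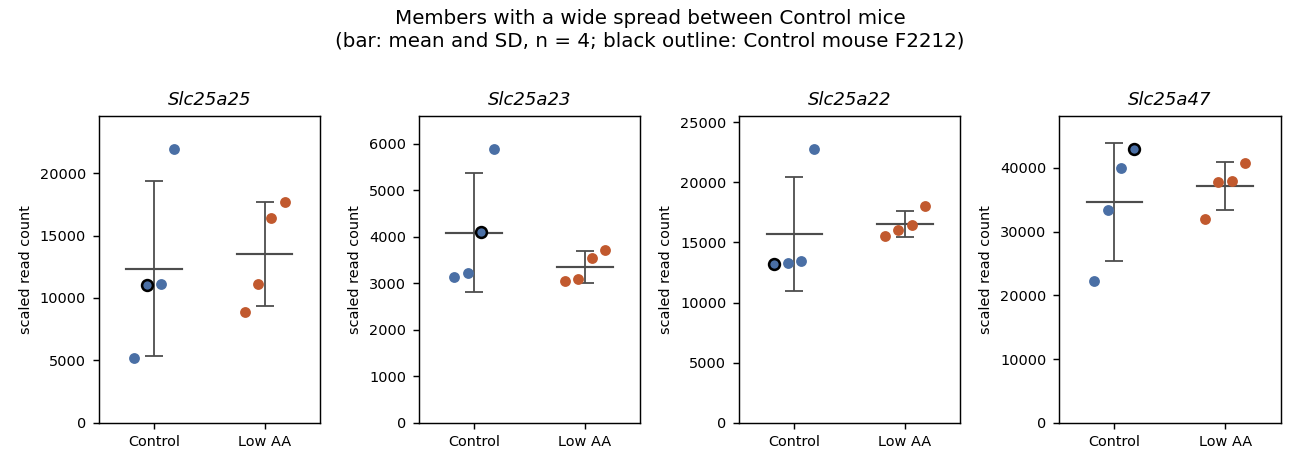
Scaled read counts (vertical axis, from 0) of 4 members with a wide spread between Control mice, 1 point per mouse, with the mean and SD of each diet (n = 4) and F2212 outlined in black. Control values ran from 5168 to 21965 for Slc25a25 and from 22185 to 43047 for Slc25a47, wider than the Low AA values of 8914 to 17645 and 32002 to 40818.

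The spread between mice was wider in the Control group for 22 of 35 members, 62.9%, and for 67.5% of all genes. The median SD on the log2 scale was 0.15 in the Low AA mice and 0.21 in the Control mice for the members, and 0.17 and 0.23 for all genes, so the carriers were close to other genes in this respect.

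Like Slc25a32, the other carriers of nucleotides, coenzymes and vitamins overlapped between the diets. Slc25a42, which brings in coenzyme A, had 4636 to 5677 in the Low AA mice and 3346 to 5346 in the Control mice, giving a log2 difference of 0.28 (standard error 0.14, limma adjusted p = 0.493). Without F2212, the highest Control mouse, it was 0.41 (limma adjusted p = 0.172). The peroxisomal carrier Slc25a17 had a log2 difference of 0.12, Slc25a16 of 0.09 (0.0041 without F2212), and Slc25a26, which imports S-adenosylmethionine made from methionine, of 0.07. Slc25a33 and Slc25a36, which carry pyrimidine nucleotides, had 0.04 and -0.07. The limma adjusted p of these last 5 ran from 0.730 for Slc25a17 to 0.958 for Slc25a36. Slc25a33 was the main pyrimidine carrier here, with 95.8% to 98.7% of the pair per kilobase.

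The mitoferrins Slc25a28 and Slc25a37 bring iron into mitochondria for heme and iron-sulfur clusters. Slc25a37 had 486, 511, 444 and 513 in the Low AA mice and 427, 657, 807 and 494 in the Control mice, with F7111 and F2212 above all others. Its log2 difference was -0.25 (standard error 0.18, limma adjusted p = 0.675), and it was -0.09 without F7111 and -0.39 without F129. Slc25a37 is also strong in red cell precursors. The summed red blood cell markers (4 of 6 in the table), which do not single out precursors, were 4743 in F7111, the lowest of the 8 mice, and 15511 in F2212, the highest. The part of red cells in the result was not tested. Slc25a28 had a log2 difference of -0.05 and made up 61.7% to 76.8% of the mitoferrin pair per kilobase.

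The other uncoupling protein relatives were weak. Slc25a27 had 65 to 99 in the Low AA mice and 48 to 94 in the Control mice, giving a log2 difference of 0.41 (standard error 0.24, limma adjusted p = 0.551). Slc25a14 had 38 to 41 and 27 to 68, a log2 difference of -0.02. Of the carriers with no firmly assigned substrate, Slc25a47, a carrier enriched in liver, had 38007, 40818, 37873 and 32002 in the Low AA mice and 39991, 43047, 22185 and 33390 in the Control mice, where F7111 was far below the rest. Its log2 difference was 0.14 with a 95% interval from -0.29 to 0.57 (limma adjusted p = 0.843), and -0.060 without F7111. Slc25a46, an outer membrane protein that shapes mitochondria, had a log2 difference of 0.12 (limma adjusted p = 0.691), and Slc25a48, with 85 to 152 in the Low AA mice and 106 to 209 in the Control mice, one of -0.33 (limma adjusted p = 0.688), or -0.16 without F7111.

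Levels differed far more between carriers than between diets. On the scale of scaled read counts per kilobase of exon, averaged over the 8 mice, Slc25a47 was highest at 18902, followed by Slc25a5 at 10637, Slc25a39 at 7871, Slc25a22 at 5573 and Slc25a3 at 4747. The lowest were Slc25a36 at 11.7 and Slc25a24 at 15.4. Of the 34 pairs of neighbours in this order, the ranges over the 8 mice stayed apart in 2, Slc25a5 above Slc25a39 and Slc25a23 above Slc25a16. The ranges of the other neighbours overlapped, and their order within each single mouse was not compared. With the longest coding transcript in place of the exon union, 3 neighbouring pairs changed order, Slc25a22 with Slc25a3, Slc25a30 with Slc25a45 and Slc25a14 with Slc25a27.

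**Figure D4:**
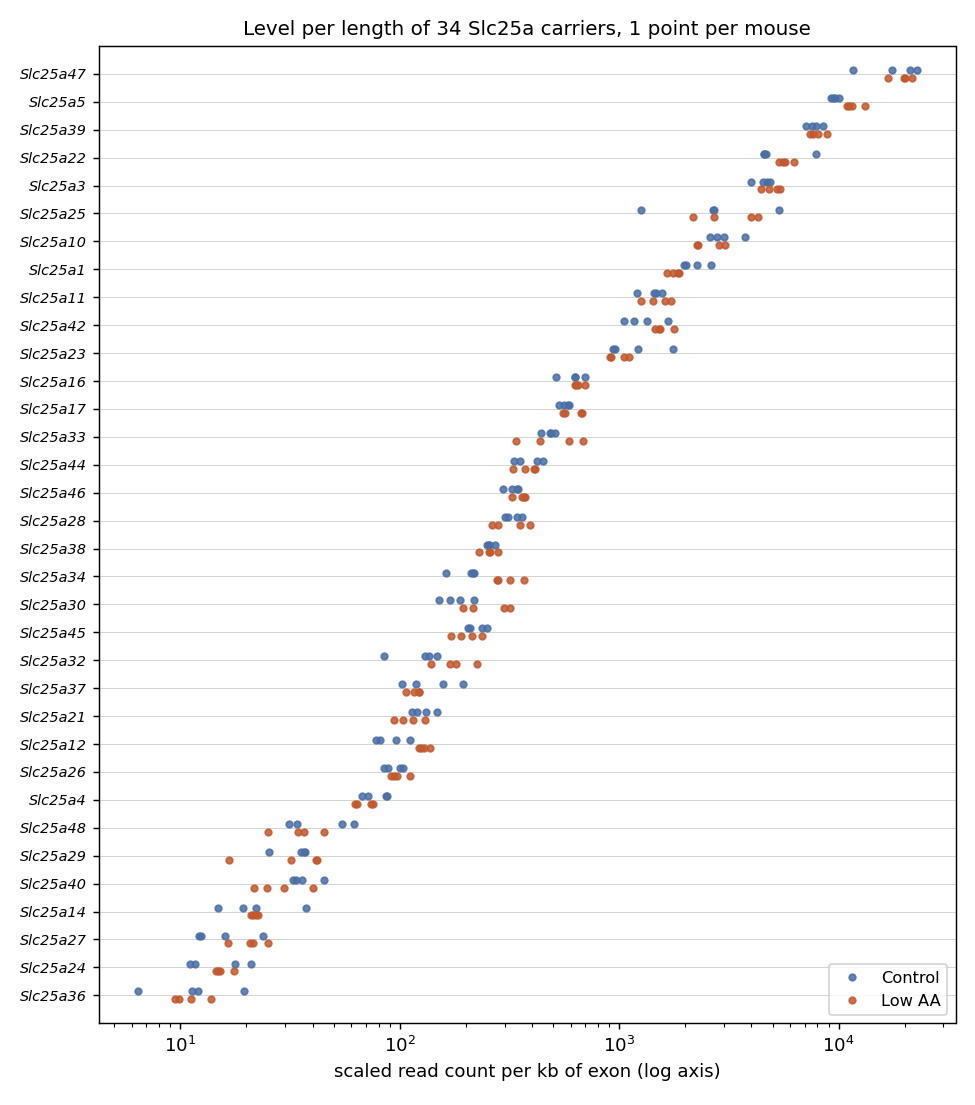
Scaled read counts per kilobase of exon (horizontal log axis) of 34 members in order of their mean, 1 point per mouse in the colour of its diet. The members run from 11.7 for Slc25a36 to 18902 for Slc25a47, and the points of the diets mostly lie over each other.

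Whether reads were counted by strand is not given in the sources, so antisense reads may be included in some values. The 35 genes lie on 19 chromosomes. No member shares an exon with a gene on the same strand, and 9 overlap an exon of a gene on the opposite strand, by up to 381 bases in Slc25a37. In 22 members no stretch of 100 bases occurs in another gene's transcript, and in the other 13 the share reached at most 12.0%, in Slc25a5. Among the 6 members at an unadjusted p under 0.05, Slc25a12 shares 1.02% and Slc25a34, Slc25a32, Slc25a30 and Slc25a1 none.

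The carriers set apart by the rule also had an adjusted p above 0.05 in limma. Slc25a20, which exchanges acylcarnitine for carnitine in fatty acid oxidation, had 6949 to 7822 in the Low AA mice and 5964 to 6629 in the Control mice, without overlap, giving a log2 difference of 0.25 (limma adjusted p = 0.273). Slc25a15, the ornithine carrier of the urea cycle, had 16857 to 20863 and 13098 to 19325, also with 0.25 (limma adjusted p = 0.533). Of the family members under other names, Mtch2, an outer membrane protein, had 5837 to 6266 and 4716 to 5612, without overlap (log2 difference 0.24, limma adjusted p = 0.314), while Ucp2, Mtch1 and Mcart1 overlapped, with 0.15, 0.08 and -0.03.

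Other mitochondrial transport genes were listed beside the family. Of 15 channel, transporter and sideroflexin genes in the table, 0 passed the adjusted threshold in limma, 4 were higher and 0 lower at an unadjusted p under 0.05, and the median log2 fold change was 0.10. Of 14 genes of the machinery that imports carriers into mitochondria, 0 passed, 2 were higher and 0 lower at that p, with a median of 0.13. Of 6 enzymes of the malate-aspartate and glycerophosphate shuttles, 0 passed and 2 were higher at that p, with a median of 0.20. Over all genes the median was 0.0023, and 5.13% were higher and 6.7% lower at that p.

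Gpd2, the mitochondrial glycerol-3-phosphate dehydrogenase of the glycerophosphate shuttle, had 2754, 2112, 2250 and 1875 in the Low AA mice and 1042, 1272, 1851 and 1234 in the Control mice. The diets did not overlap, though F7111 at 1851 was close to H1315 at 1875, and the log2 difference was 0.75 (standard error 0.18, limma adjusted p = 0.117). Vdac2, a pore of the outer membrane, had 2934 to 3412 in the Low AA mice and 2275 to 2763 in the Control mice (log2 difference 0.31, limma adjusted p = 0.22), without overlap.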

How the data were processed

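Poly(A) RNA of 8 mouse livers was sequenced as single reads of 100 bases. The submitters' processing notes name bcl2fastq 1.8.2, STAR 2.5.0a, RSEM 1.2.6, edgeR 3.10.5 and R 3.2.1 with mm10, without their roles; what annotation and scaling were used is not given in the sources used here. As the file shows, the authors deposited a signal per gene and mouse in whole numbers, treated here as a scaled and rounded read count. Their own fold change (a score) and FDR (a q-value) were also deposited and were not used. Medians over genes were 433.0 to 449.0 per mouse. Every gene has at least 28 in 3 mice, so weak genes were removed before deposit. With scaled values no count model was run, and depth is unknown.

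Values were compared as log2(value + 1) over all 11784 genes by limma (version 3.58.1, R version 4.3.3), whose prior variance followed the mean, two-sided, Benjamini-Hochberg adjusted, at an adjusted p under 0.05. The pseudocount understates changes of weak genes. The script was tested on simulated data. Exact permutation tests used scipy 1.17.1. Levels per kilobase used the exon union of GENCODE coding transcripts. Promoter windows were found for 28 members. Named with every mouse were members at an unadjusted p under 0.05, the largest difference in each substrate group and the 5 highest per length; Slc25a23 fell outside this rule and was added after its values were seen. Members, lists and tests were chosen with earlier results of these data known. Alternatives were pseudocounts of 0.1 and 5, a filter of 1 in 4 mice, the 8000 highest genes, equal totals or upper quartiles, no trend, robust moderation, vooma weights and each mouse left out. Single values of 1 member and of 1 other transport gene are not reported here, though both count in the totals.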

Additional observations from a re-analysis of the deposited data

Results flagged for a closer look

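Within each diet, the 4 mice were examined for 1 mouse far from the rest, by the gap to the nearest mouse over the range on the log2 scale, for each of the 35 members. Of these 70 groups 3 stood out, where chance gives about 1 in 20, or 3.5 groups. The count was therefore no higher than chance gives. Control mouse F2110 stood above the other Control mice for Slc25a22, with 22810 against 13179 to 13494 (gap over range 0.957). Control mouse F2212 stood below for Slc25a34, with 433 against 561 to 580 (0.886). Control mouse F129 stood below for Slc25a29, with 50 against 70 to 73 (0.889). Why these mice stood apart was not tested.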

How the results depend on the processing

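The count of 0 members at an adjusted p under 0.05 in limma was the same under all 17 alternatives. The same 6 members were at an unadjusted p under 0.05 under each alternative that kept all 8 mice, also among the 25 members left with the 8000 highest genes. The filter of 1 in 4 mice removed 0 genes, so this alternative repeats the main fit and checks nothing. With each mouse left out in turn, the members at that p numbered 3 to 6 higher and 0 to 2 lower, and those without overlap 3 to 5 higher and 1 to 2 lower. Of the 34 members with single values given, the sign changed with a mouse left out for 11. Their log2 fold changes then ran from -0.21 to 0.23 for Slc25a14, -0.076 to 0.23 for Slc25a24, -0.10 to 0.60 for Slc25a25, -0.15 to 0.044 for Slc25a28, -0.23 to 0.20 for Slc25a29, -0.11 to 0.22 for Slc25a33, -0.34 to 0.19 for Slc25a36, -0.055 to 0.040 for Slc25a38, -0.0067 to 0.086 for Slc25a39, -0.10 to 0.045 for Slc25a44 and -0.060 to 0.26 for Slc25a47. The other 23 kept their sign in every alternative. No paired analysis was possible because the mouse codes are not shared between the diets. With 4 mice a diet, small differences could be missed.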
